A study of Mus musculus with 6 samples.

Results

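Leukocyte integrins and the partners of selectins are the surface proteins by which white blood cells hold on to vessel walls and to matrix. Their transcripts were followed here for 9 genes of the 27998 gene columns in single-cell RNA-seq of mouse myeloid progenitors. The 9 genes were listed by name, with earlier results of these data known. They were Itgam, Itgal and Itgax, alpha subunits that pair with Itgb2; Itgb2 itself; Itga4, an alpha subunit that pairs with Itgb1 or Itgb7; Itgb1 and Itgb7; Selplg, which encodes the selectin ligand PSGL-1; and Cd177, a glycosylphosphatidylinositol-anchored glycoprotein of neutrophils. A UMI, the identifier of 1 transcript molecule, was found for all 9 genes, and 7 of the 9 reached a mean of 20 counts per 1e6 UMIs (CPM) over the 6 libraries. Itgax and Itgb7 did not.

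An integrin reaches the cell surface as a pair of an alpha and a beta subunit, so a cell needs transcripts of both. Rolling on selectins through Selplg comes first in the capture of a leukocyte, and Itgb2 and Itga4 integrins, once activated from inside the cell, make the contact firm. Itgam with Itgb2 (CD11b/CD18) is a standard surface marker of mature myeloid cells, Itga4 is carried by blood progenitors, and CD177 is stored in neutrophil granules and shown on the surface of neutrophils.

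The cells were granulocyte-macrophage progenitors of the strain given as C57BI/6, held immature by HOXA9 fused to the estrogen receptor hormone-binding domain (ER), with a GFP reporter at the lysozyme locus (Lys-GFP-ER-HoxA9 cells), and all were grown with stem cell factor. In the CAF-1 OFF (CAF-1) arm, a clone with an IPTG-inducible hairpin that targets Chaf1b, which encodes part of the chromatin assembly factor CAF-1, was sampled at 0 h in beta-estradiol and after 48 and 96 h of IPTG. In the HOXA9 OFF (HOXA9) arm, a clone with a control vector was sampled at 0 h in beta-estradiol and after 48 and 96 h without it, which inactivates the HOXA9 fusion. Each arm rests on 1 clone and each time point on 1 library, so no test between groups was possible. Intervals below are exact 95% intervals for counting error only, and higher or lower counts every gene whose CPM + 10 differed at least 2-fold from the 0 h library of its arm.

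The 6 libraries held 473 to 1510 kept cells and 3524285 to 5589486 UMIs. Median UMIs per cell ranged from 2043.5 in HOXA9 OFF 96 h to 8660 in HOXA9 OFF 0 h, and the limit of 10% mitochondrial UMIs removed 66.2% of barcodes in HOXA9 OFF 0 h against 0.198% in HOXA9 OFF 96 h. Of all barcode sequences, 16 occurred among the kept cells of more than 1 library. Chaf1b, the target of the hairpin, stood at 35.6, 3.22 and 6.49 CPM at 0, 48 and 96 h in the CAF-1 arm and at 51.5, 15.3 and 1.13 CPM in the HOXA9 arm, so it was below 0 h in both arms. The labelled progenitor type was checked with 8 markers. Their summed level was 1397 and 1325 CPM in the 0 h libraries. At 48 and 96 h it was 1361 and 1219 CPM in the CAF-1 arm and 275 and 115 CPM in the HOXA9 arm. Cd34 alone held 756 and 660 CPM of the 0 h sums. In the HOXA9 arm 6 of the 8 were at least 2-fold lower at 48 h and 7 at 96 h. Hoxa9 went the other way there, at 23.1, 71.9 and 53.3 CPM at 0, 48 and 96 h. From bulk RNA-seq of such cells, the paper reports that the HOXA9 fusion transgene was expressed and endogenous Hoxa9 was not. Hoxa9 is therefore no clear marker of progenitors here, and the source of its UMIs was not tested. The 11 late granulocyte markers summed to 35.6 and 29.8 CPM at 0 h, with S100a9, Ltf and Ngp at 0 UMIs in both. They summed to 876 and 1333 CPM at 48 and 96 h in the CAF-1 arm, where Ltf was at 0 UMIs at both times. In the HOXA9 arm they summed to 15250 and 152947 CPM. Mmp8 alone held 582 and 724 CPM of the sums in the CAF-1 arm, and was at 122 and 4692 CPM in the HOXA9 arm. At least 2-fold higher were 4 of the 11 markers at both times in the CAF-1 arm, and 9 and then 11 in the HOXA9 arm. The part of the change in cell makeup in the values below was not tested.

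Itgam and Cd177 went from almost no UMIs to high levels in the HOXA9 arm, and Itga4 was below 0 h at both times in both arms, so the RefSeq promoter windows of these 3 genes are shown (assembly GRCm38.p6, 250 bases before to 50 bases after the gene's start). Windows were found for 6 of the 9 genes and not for Itgb2, Itgal and Selplg. Capitals mark matches, on either strand, to 4 short motifs. These were GAGGAA, a core of sites for the myeloid factor PU.1; TTGCNNAA, a form of the C/EBP site; TGTGGT, the core of the RUNX site; and TATAAA, the TATA box.
Itgam, plus strand, chr7:128062390-128062689: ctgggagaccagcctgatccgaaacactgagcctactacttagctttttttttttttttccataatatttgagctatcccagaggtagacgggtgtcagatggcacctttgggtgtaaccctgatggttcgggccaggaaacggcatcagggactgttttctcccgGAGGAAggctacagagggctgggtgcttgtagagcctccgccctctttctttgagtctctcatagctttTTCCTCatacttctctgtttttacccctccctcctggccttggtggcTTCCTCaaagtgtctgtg
Cd177, minus strand, chr7:24760262-24760561: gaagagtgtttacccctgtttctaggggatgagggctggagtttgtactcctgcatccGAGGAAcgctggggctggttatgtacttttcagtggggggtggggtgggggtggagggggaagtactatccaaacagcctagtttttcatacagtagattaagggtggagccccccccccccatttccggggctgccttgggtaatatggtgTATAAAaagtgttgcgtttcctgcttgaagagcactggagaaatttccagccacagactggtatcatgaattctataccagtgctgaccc
Itga4, plus strand, chr2:79255176-79255475: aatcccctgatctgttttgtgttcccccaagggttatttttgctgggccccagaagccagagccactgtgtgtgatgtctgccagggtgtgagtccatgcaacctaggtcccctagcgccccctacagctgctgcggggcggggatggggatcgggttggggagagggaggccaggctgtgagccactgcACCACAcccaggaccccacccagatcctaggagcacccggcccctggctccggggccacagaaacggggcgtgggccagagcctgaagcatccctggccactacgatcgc
The Itgam window held 3 matches to GAGGAA, the first base of each at -84, -15 and 32 from the start base, which is counted as 0. The Cd177 window held 1 match at -192 and a TATAAA at -40, counted from the start base of the window, which lies inside the gene span given below and not at its end. The Itga4 window held no GAGGAA and 1 RUNX core, at -60. Of the windows not shown, those of Itgb1 and Itgb7 held 1 match to GAGGAA each. That of Itgax held none and 1 RUNX core. Itgb1, with a match, was not 2-fold higher than 0 h in either arm. Itgb7, also with a match, was at least 2-fold higher at 96 h in the HOXA9 arm. Itgax, without one, had 1 UMI at 0 h and 27 at 96 h in the HOXA9 arm, short of the 2-fold size. A link between the matches and the levels was not tested. Of 32851 RefSeq promoter windows of this length, 28.3% held GAGGAA, 10.8% TTGCNNAA, 16.8% TGTGGT and 13.6% TATAAA. TTGCNNAA was in none of the 3 windows shown. A match of this kind is a description of the letters, and binding was not measured.

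The genes lie apart in the genome, except for the Itgb2-partnered alpha subunits. Itgal (chromosome 7, 127296139 to 127335137), Itgam (chromosome 7, 128062640 to 128118491) and Itgax (chromosome 7, 128129526 to 128150657) lie in this order, and Cd177 lies elsewhere on the same chromosome (24743983 to 24760334). Itgb2 is on chromosome 10 (77530329 to 77565708), Itga4 on chromosome 2 (79255426 to 79333114), Itgb1 on chromosome 8 (128685654 to 128733579), Itgb7 on chromosome 15 (102215994 to 102233405) and Selplg on chromosome 5 (113817798 to 113832528). The 3 neighbours on chromosome 7 followed different courses, as the values below show.

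After inactivation of HOXA9, 4 of the 9 genes were at least 2-fold higher at 48 h (Itgam, Itgb2, Selplg and Cd177) and 6 of 9 at 96 h (the same 4 with Itgal and Itgb7). None was at least 2-fold lower. Among 4789 genes whose mean reached 20 CPM, 13% were higher and 19.6% lower at 48 h, and 18.1% were higher and 39.8% lower at 96 h. The median log2 ratio of the 9 genes was 1.00 at 48 h and 2.07 at 96 h, against -0.23 and -0.56 for all 4789 genes. For the 7 of the 9 that reached a mean of 20 CPM it was 1.58 and 2.51, with 4 and 5 of the 7 higher. After suppression of CAF-1, 1 of the 9 genes was higher at 48 h (Itgb2) and 2 at 96 h (Itgam and Itgb2), and none was lower. In that arm 2.76% of the 4789 genes were higher and 0.0418% lower at 48 h, and 5.22% were higher and 0.856% lower at 96 h. The median log2 ratio of the 9 genes was 0.26 and 0.64, against 0.00 and -0.08 for all 4789 genes. For the same 7 genes it was 0.26 and 0.65, with 1 and 2 of the 7 higher. Between the 0 h libraries of the 2 arms, 0 of the 9 genes were 2-fold apart, where 0.752% of the 4789 genes were higher and 0.146% lower in the HOXA9 arm.

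**Figure D1:**
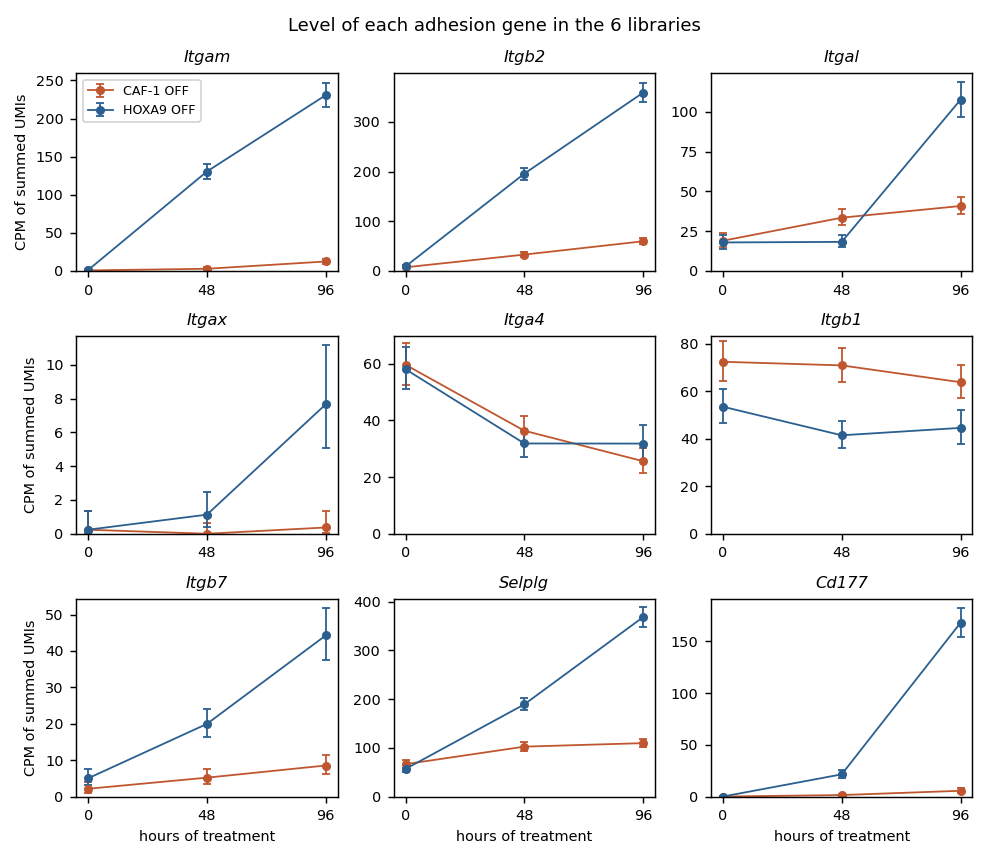
CPM of summed UMIs (vertical axes, which start at 0 and differ between panels) of the 9 genes at 0, 48 and 96 h (horizontal axes) in both arms, CAF-1 OFF and HOXA9 OFF, 1 library per point, with exact 95% Poisson intervals for counting error. Itgam, Itgb2, Selplg and Cd177 rise steeply in the HOXA9 arm, Itgal lies above the CAF-1 arm at 96 h but below it at 48 h, and Itga4 is lower at 48 and 96 h than at 0 h in both arms.

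Itgam encodes the alpha subunit CD11b. Its UMIs numbered 3, 16 and 67 at 0, 48 and 96 h in the CAF-1 arm and 5, 693 and 813 in the HOXA9 arm, which is 0.712, 2.86 and 12.4 CPM against 1.19, 130 and 231 CPM. Both 0 h libraries were low, and both later HOXA9 OFF libraries lay above every CAF-1 OFF library. At 96 h the level was 193-fold the 0 h level in the HOXA9 arm (82.5 to 597) and 17.4-fold in the CAF-1 arm (5.72 to 86.7), both against 0 h libraries with few UMIs. Compared directly at 96 h, HOXA9 OFF was 18.6-fold above the CAF-1 arm (14.5 to 24.2). In UMIs per cell it was 7.32-fold above it, and the rise from 0 to 96 h was 50.9-fold in the HOXA9 arm and 15.9-fold in the CAF-1 arm. The 2 times in the HOXA9 arm differed 1.77-fold in CPM (1.60 to 1.96) and 1.09-fold in UMIs per cell, 0.494 and 0.538, as the cells at 96 h held fewer UMIs in all. Itgam-encoded protein needs Itgb2 at the surface, and that gene is next.

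Itgb2 encodes CD18, the beta subunit shared by Itgam, Itgal and Itgax. It stood at 7.36, 32.9 and 59.7 CPM in the CAF-1 arm and at 9.07, 195.7 and 359 CPM in the HOXA9 arm. The 0 h libraries differed little, by 1.23-fold (0.747 to 2.05). From 0 to 96 h the gene rose 8.12-fold in the CAF-1 arm (5.61 to 12.1) and 39.5-fold in the HOXA9 arm (28.7 to 56.2). Before treatment Itgb2 had 31 and 38 UMIs, where Itgam had 3 and 5. HOXA9 OFF lay 5.94-fold above the CAF-1 arm at 48 h (5.08 to 6.99) and 6.01-fold above it at 96 h (5.31 to 6.81). In UMIs per cell the rise by 96 h was 7.38-fold in the CAF-1 arm and 10.4-fold in the HOXA9 arm, and HOXA9 OFF was 2.37-fold above CAF-1 OFF at 96 h, so the arms lay closer on this scale.

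Itgal encodes CD11a, the alpha subunit of LFA-1, which binds ICAM proteins. Its course in the HOXA9 arm was late, with 17.9, 18.3 and 107.5 CPM at 0, 48 and 96 h. At 48 h the ratio to 0 h was 1.02 (0.747 to 1.40), and at 96 h the level was 5.89-fold that at 48 h (4.70 to 7.44). In the CAF-1 arm the levels were 19.0, 33.5 and 40.8 CPM, 2.15-fold at 96 h (1.66 to 2.81). At 48 h Itgal was thus 1.83-fold lower in the HOXA9 arm than in the CAF-1 arm (1.43 to 2.37), and at 96 h it was 2.64-fold higher (2.23 to 3.13). In UMIs per cell Itgal in the HOXA9 arm was 2.30-fold below 0 h at 48 h and 1.58-fold above it at 96 h, and the ratio of the arms at 96 h was 1.04. Itgax, which encodes CD11c, a subunit of macrophages and dendritic cells, was at 1, 0 and 2 UMIs in the CAF-1 arm. It was at 1, 6 and 27 UMIs in the HOXA9 arm, the last of these 7.66 CPM (5.05 to 11.1). Its ratio at 96 h to 0 h in the HOXA9 arm, 32.1, had an interval from 5.29 to 1314, because the 0 h library held 1 UMI.

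Itga4 encodes CD49d, which binds VCAM-1 and fibronectin when paired with Itgb1. It was the only one of the 9 genes with a fold interval below 1 at both times in both arms. Its levels were 59.6, 36.3 and 25.6 CPM in the CAF-1 arm and 58.0, 31.8 and 31.8 CPM in the HOXA9 arm, so the 0 h libraries stood above the treated ones in each arm. The level at 96 h was 2.33-fold below 0 h in the CAF-1 arm (1.88 to 2.89) and 1.82-fold below it in the HOXA9 arm (1.45 to 2.30). On the scale of log2(CPM + 10), these ratios were -0.97 and -0.70, short of the 2-fold size, and the median of all genes in the HOXA9 arm was itself at -0.56. In UMIs per cell Itga4 was 6.93-fold lower at 96 h in the HOXA9 arm and 2.56-fold lower in the CAF-1 arm.

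Itgb1 encodes CD29, the beta subunit with the widest choice of alpha partners. It was at 72.4, 70.8 and 63.8 CPM in the CAF-1 arm and at 53.5, 41.4 and 44.5 CPM in the HOXA9 arm. In the CAF-1 arm the ratio of 96 h to 0 h was 0.881 (0.753 to 1.03), and in the HOXA9 arm it was 0.833 (0.675 to 1.03). The log2 ratio at 96 h in the HOXA9 arm, -0.22, took the other sign under TMM scaling (0.19) and median-of-ratios scaling (0.26), so no direction is given for it. At 48 h in that arm the ratio was 0.775 (0.640 to 0.938). The log2 ratio there, -0.30, lay near the median of all genes, -0.23, which was 0.02 under TMM scaling. No direction is given for 48 h either. In UMIs per cell Itgb1 was 3.02-fold lower at 48 h and 4.55-fold lower at 96 h in the HOXA9 arm. Between the 0 h libraries Itgb1 was 1.35-fold lower in CPM in the HOXA9 arm (1.14 to 1.62), but in UMIs per cell the ratio was 1.00. Itgb7, the other partner of Itga4 and a subunit of gut-homing integrins, was at 2.14, 5.19 and 8.53 CPM in the CAF-1 arm and at 5.01, 19.96 and 44.3 CPM in the HOXA9 arm. It rose 8.83-fold by 96 h in the HOXA9 arm (5.58 to 14.7) and was 3.99-fold above 0 h in the CAF-1 arm (1.93 to 9.28), short of the 2-fold size on the scale of CPM + 10. In UMIs per cell the order of the arms was the reverse, at 2.33-fold in the HOXA9 arm and 3.63-fold in the CAF-1 arm. It was 2.35-fold higher in the HOXA9 arm already at 0 h (1.03 to 5.82).

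Selplg was present in every library, at 66.4, 102 and 109.6 CPM in the CAF-1 arm and at 56.6, 189 and 368 CPM in the HOXA9 arm. In the CAF-1 arm it was 1.54-fold above 0 h at 48 h (1.33 to 1.78) and 1.65-fold at 96 h (1.43 to 1.91), with a ratio between these 2 times of 1.07 (0.953 to 1.2). In the HOXA9 arm it was 3.34-fold above 0 h at 48 h (2.90 to 3.87) and 6.51-fold at 96 h (5.66 to 7.50). Per cell, however, Selplg was 1.43-fold above 0 h at 48 h in both arms and 1.71-fold at 96 h in the HOXA9 arm against 1.5-fold in the CAF-1 arm. The 6.51-fold gain in CPM at 96 h thus stood beside a 1.71-fold gain per cell, in cells with fewer UMIs in all.

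Cd177 had 0 UMIs in both 0 h libraries, which allows up to 0.712 CPM in the CAF-1 arm and 0.716 CPM in the HOXA9 arm at 3 counts per library. It then had 8 and 30 UMIs in the CAF-1 arm and 114 and 592 UMIs in the HOXA9 arm. The levels were 1.43 and 5.56 CPM against 21.5 and 168 CPM, at least 7.81-fold above the 0 h limit in the CAF-1 arm at 96 h and at least 235-fold in the HOXA9 arm. At 96 h it was 7.82-fold above 48 h in the HOXA9 arm (6.39 to 9.65), where the same ratio was 1.77 for Itgam. HOXA9 OFF exceeded CAF-1 OFF 30.2-fold at 96 h (20.9 to 45.2). In UMIs per cell the arms differed 11.9-fold at 96 h, and the step from 48 to 96 h in the HOXA9 arm was 4.83-fold.

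Because the libraries differed in depth, each cell was also thinned to 1300 UMIs, which left 633, 907 and 902 cells in the CAF-1 arm and 472, 1376 and 1376 cells in the HOXA9 arm. At this equal depth Itgb2 had a UMI in 1.11%, 3.75% and 7.43% of cells in the CAF-1 arm and in 2.12%, 23.6% and 38.2% in the HOXA9 arm. Itgam had one in 0.158%, 0.551% and 1.88% against 0%, 16.2% and 25.9%, where 0 of 472 cells allows a share of cells with a UMI of up to 0.636% (3 counts of the total). Without thinning the Itgam shares in the HOXA9 arm were 1.06%, 36.6% and 39.3%, so the step from 48 to 96 h showed at equal depth and was small in the raw shares. Cd177 had a UMI in 3.20% and then 18.9% of thinned cells in the HOXA9 arm, and in 0.221% and 0.887% in the CAF-1 arm (7.48%, 26.7%, 0.863% and 2.96% unthinned). Itga4 went from 7.90% to 3.97% and 2.99% in the CAF-1 arm and from 6.57% to 3.63% and 3.56% in the HOXA9 arm. The share of thinned cells with a UMI of none of the 9 genes was 75.4%, 69.1% and 66.4% in the CAF-1 arm and 76.5%, 45.3% and 17.6% in the HOXA9 arm.

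**Figure D2:**
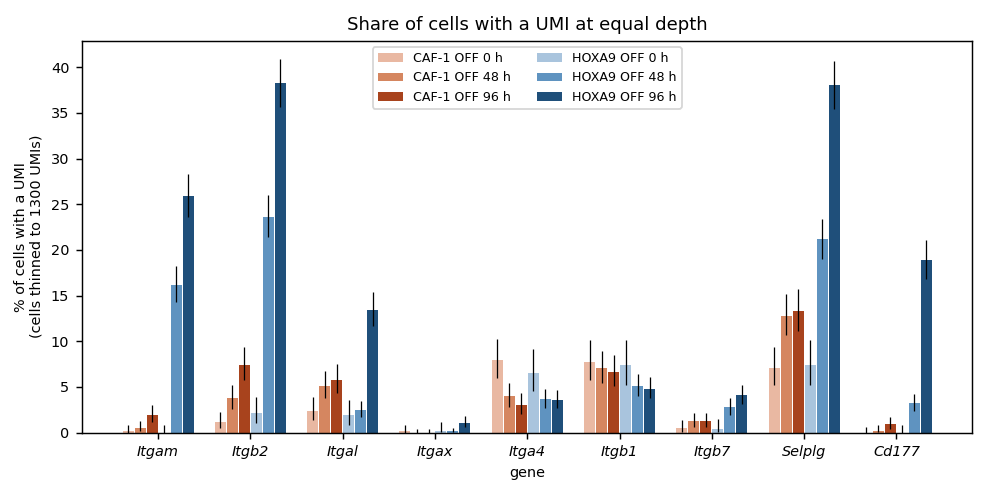
Percentage of cells with at least 1 UMI of each gene (vertical axis, from 0) after each cell was thinned to 1300 UMIs, in the 6 libraries (shades, CAF-1 OFF in brown and HOXA9 OFF in blue), with exact 95% binomial intervals for counting error. HOXA9 OFF 96 h reaches 38.2% for Itgb2 and 18.9% for Cd177, while Itga4 is higher in the 0 h libraries than later.

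Since integrins work as pairs, the thinned cells were also asked for both transcripts of a pair. Itgam and Itgb2 occurred together in 4.94% of cells in the HOXA9 arm at 48 h (3.86% to 6.22%), where the product of the separate shares is 3.83%. At 96 h they occurred together in 9.16% (7.69% to 10.8%), against a product of 9.92%. Itgal and Itgb2 were together in 0.727% and 5.16% of cells, with products of 0.584% and 5.14%. At 96 h both products lay within the intervals of the shares, while at 48 h the product for Itgam and Itgb2 lay just below its interval. In the CAF-1 arm at 96 h, 3 of 902 cells held both Itgam and Itgb2. For Itga4 and Itgb1 the count was at most 4 cells in any library, too few to read.

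To see which cells carried the genes, the cells of each library were clustered without the 9 genes, and each cluster is called here by the genes that led it. Clusters were made from the same cells, so their values are descriptions with no test. In the HOXA9 arm at 48 h, Itgam was found in all 7 clusters of at least 40 cells, from 37.5 CPM in the 44 cells led by Ifitm1 and the mast cell protease genes Cpa3 and Cma1 to 250 CPM (206 to 301) in the 174 cells led by the granule and calprotectin genes S100a9 and Ltf. In the first of these 9.09% of cells had an Itgam UMI, at a median of 2415 UMIs per cell, and in the second 46.6%, at 2485. The 201 cells led by the eosinophil granule genes Prg2, Prg3 and Epx held Itgam at 102 CPM (79.3 to 128) and Itgb2 at 137 CPM (110 to 167). In these cells 9 eosinophil markers summed to 130749 CPM, of which Prg2 alone held 116441 CPM. The same cells held Itgal at 2.90 CPM (0.352 to 10.5), where the S100a9 cluster held 45.0 CPM (27.5 to 69.6).

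No cluster of at least 40 cells in the HOXA9 arm lacked Itgam after 0 h, so no background share could be taken for it, while Cd177 was at 0 in some. At 48 h it stood at 101 CPM (73.9 to 136) in the S100a9 and Ltf cluster, with a UMI in 23.0% of cells. It had 0 UMIs in the 201 cells led by Prg2, which allows a share of cells with a UMI of up to 1.49% at a median of 3318 UMIs, and 0 UMIs in the 44 cells led by Cpa3, which allows up to 6.82%. At 96 h it was at 237 CPM (204 to 276) in the 264 cells led by Ngp, Ltf and Fcnb and at 276 CPM (237 to 318) in the 381 cells led by Retnlg, Stfa2 and Ly6g, all genes of neutrophil maturation or of the stefin family. The 120 cells led by Prg2 and Prg3 held it at 5.95 CPM (0.720 to 21.5), with a UMI in 1 cell.

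Itgb7 was highest in clusters with little or no Cd177, but both genes were also found together. At 48 h it reached 299.9 CPM (214 to 408) in the 44 cells led by Ifitm1, Cpa3 and Cma1 and 44.5 CPM (31.9 to 60.4) in the 285 cells led by Psap, Pld4 and Dpep2, where Cd177 was at 43.4 CPM. It lay between 3.28 and 7.26 CPM in the other 5 clusters, the Prg2 cluster included. At 96 h it was at 152 CPM (113 to 199) in the Prg2 cluster and 148 CPM (111 to 194) in the 80 cells led by Ccl5, Ms4a6c and Ms4a4c, against 1.36 CPM (0.0346 to 7.6) in the Ngp cluster. Those 80 cells also held Itga4 at 126 CPM (91.7 to 168), where the clusters led by Ngp and by Retnlg held 12.3 and 10.4 CPM, so both subunits of the Itga4 and Itgb7 pair were high in them. In the sum over the library, Itga4 in the HOXA9 arm at 96 h came to 45 of 112 UMIs from these 80 of 1510 cells.

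The Prg2 cluster at 96 h stood apart in Itgb1 and in Itgax. Itgb1 was at 190 CPM (147 to 243) there and between 13.4 and 69.9 CPM in the other 5 clusters. Itgax was at 56.5 CPM (34.0 to 88.3), from 19 of the 27 Itgax UMIs of the library, and at most 5.96 CPM elsewhere. Itgam (235 CPM) and Itgb2 (312 CPM) were within the range of the other clusters in these cells. Itgal was at 38.7 CPM (20.6 to 66.1), against 171 CPM (141 to 206) in the Retnlg, Stfa2 and Ly6g cluster. Selplg was high throughout, from 288 to 510 CPM at 96 h, with its upper end in the 399 cells led by Asprv1, Ccl6 and Retnlg.

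**Figure D3:**
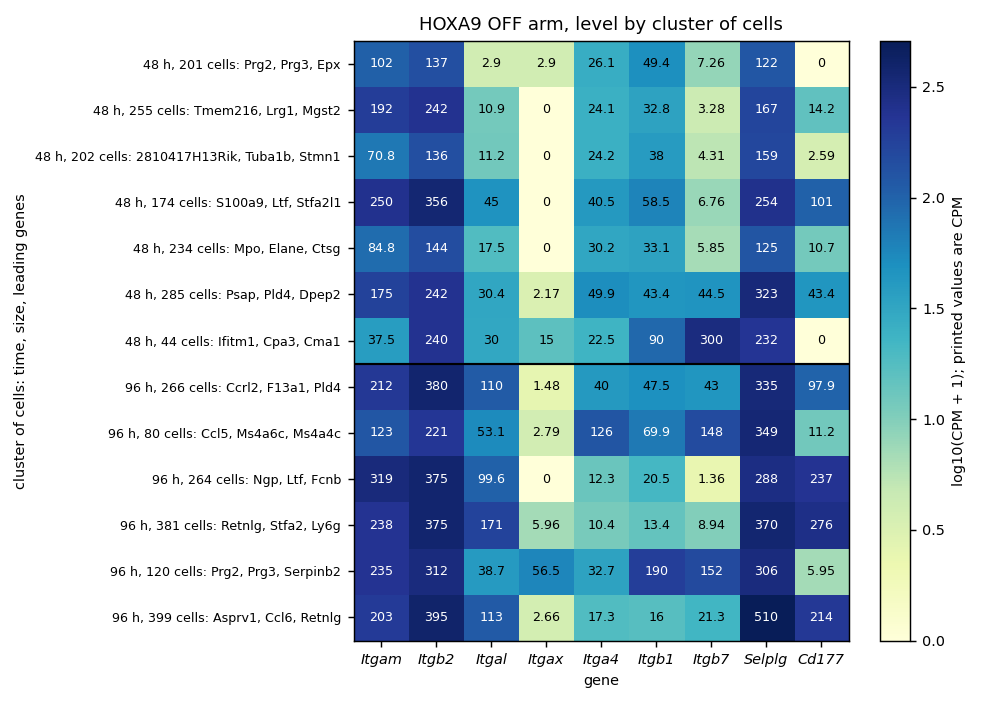
CPM of the 9 genes (columns, printed in each cell; colour on a log10(CPM + 1) scale) in the clusters of at least 40 cells of the HOXA9 arm at 48 h (upper 7 rows) and 96 h (lower 6 rows), each named by time, size and leading genes. Cd177 is at 0 in 2 clusters at 48 h, and Itgb7 is highest in the cluster with Cpa3 at 48 h and in those led by Ccl5 and by Prg2 at 96 h, where Cd177 is at 0 to 11.2 CPM.

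In the CAF-1 arm Itgam and Itgb2 were highest in clusters with Chil3 and Fcnb among their leading genes. At 48 h Itgam was at 14.6 CPM (6.68 to 27.7) and Itgb2 at 86.0 CPM (64.4 to 113) in the 112 cells led by Prg2, Chil3 and Ly6c2. In the 199 cells led by Ebf1, Ctla2a and Lgals9, the same genes had 0 UMIs, which allows up to 2.32 CPM, and 6.97 CPM (3.19 to 13.2). Itga4 ran the other way, at 16.2 CPM (7.78 to 29.9) in the first and 45.7 CPM (34.8 to 59.0) in the second. At 96 h, 35 cells led by Chil3, Mogat2 and Fcnb held Itgam at 88.4 CPM (42.4 to 162) and Itgb2 at 203 CPM (129 to 305), from 10 and 23 UMIs. That cluster is under the minimum of 40 cells used for the HOXA9 arm. The other 4 clusters at 96 h held Itgam at 2.95 to 21.7 CPM and Itgb2 at 22.7 to 75.6 CPM. Among these, Itgb2 was highest in the 252 cells led by Ube2c, Cxcl3 and Cenpa.

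The proteins that link integrins to the inside of the cell and set their activity, inhibitors included, were taken as a list of 24 genes, of which 21 had a UMI. Levels of this list and of those that follow are in CPM and are not given per cell. Median UMIs per cell fell from 8660 at 0 h to 2043.5 at 96 h in the HOXA9 arm. A gene that was higher in CPM there need not have been higher per cell. In the HOXA9 arm 8 of these were at least 2-fold higher at 48 h and 11 at 96 h, and none was lower, where 13% and 18.1% of all 4789 genes were higher and 19.6% and 39.8% lower. In the CAF-1 arm none was higher or lower at either time, where 2.76% and 5.22% of all genes were higher, so a count of 0 is near the share over all genes. Zyx, a focal adhesion protein, was at 36.3, 159 and 215 CPM in the HOXA9 arm and at 34.4, 51.4 and 61.4 CPM in the CAF-1 arm. Apbb1ip, which encodes the Rap1 effector RIAM, was at 38.4, 98.7 and 182 CPM in the HOXA9 arm and at 32.3, 37.9 and 47.5 CPM in the CAF-1 arm. Pxn, which encodes the adaptor paxillin, and Ptk2b, which encodes the kinase PYK2, were 5.54-fold (4.46 to 6.94) and 7.0-fold (5.09 to 9.83) above 0 h at 96 h in the HOXA9 arm. Skap2, Ilk and Lims1 were likewise higher at both times in that arm, Tln1 (talin) at 48 h only, and Rap1a, Rap1b, Fyb and Vcl at 96 h only. Fermt3, the kindlin of blood cells, was present throughout, at 160 to 235 CPM, and was not 2-fold apart in any comparison with 0 h.

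Of 9 genes listed for selectins and their partners, 6 had a UMI. Cd44, a hyaluronan receptor that can also bind E-selectin, was higher in CPM in the HOXA9 arm at 96 h, 218 against 56.6 CPM at 0 h. Spn, the sialomucin CD43, was lower, 8.23 against 32.9 CPM. Cd24a, the mouse CD24 gene, was listed at 0 in every library.

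Selplg binds selectins only when decorated with sugars, and 12 of the 13 listed genes of that decoration had a UMI. St3gal6, a sialyltransferase, was at 4.03, 27.2 and 72.1 CPM in the CAF-1 arm, 17.9-fold above 0 h at 96 h (11 to 31.0), and at 5.97, 2.64 and 10.2 CPM in the HOXA9 arm. Gcnt1, the enzyme of the core 2 branch, was at 6.88, 9.48 and 16.7 CPM in the CAF-1 arm and rose 9.43-fold by 96 h in the HOXA9 arm (6.44 to 14.3). St3gal3 was higher at both times in the HOXA9 arm and B4galt1 at 48 h. Fut7, a fucosyltransferase of this pathway, was at 24.0, 28.3 and 32.8 CPM in the CAF-1 arm and at 21.2, 15.4 and 11.6 CPM in the HOXA9 arm, and was not 2-fold apart from 0 h on the scale of CPM + 10.

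Among 19 other integrin subunits, 13 had a UMI. Itga2b and Itgb3, the pair of the platelet fibrinogen receptor, were at 73.0 and 23.9 CPM in the CAF-1 arm at 96 h, against 3.56 and 5.22 CPM at 0 h. In the HOXA9 arm they were at 28.1 and 25.4 CPM at 48 h and at 5.11 and 16.2 CPM at 96 h. The 8 megakaryocyte markers, which include Itga2b, summed to 45.8, 503 and 2697 CPM in the CAF-1 arm and to 36.3, 76.8 and 17.6 CPM in the HOXA9 arm, with Gp1bb at 0 UMIs in every library. Itgb5 was higher at 96 h in the HOXA9 arm (32.9 against 5.73 CPM) and Itga6 lower (16.7 against 46.5 CPM). Of the integrin ligands, 11 of 14 had a UMI. Icam2, a ligand of Itgal with Itgb2, was at 165, 61.6 and 35.5 CPM in the HOXA9 arm and at 184, 181 and 202 CPM in the CAF-1 arm. Pecam1 was lower at 96 h in the HOXA9 arm, 11.6 against 39.9 CPM. Thy1 was higher at both times in the CAF-1 arm and lower at both times in the HOXA9 arm.

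**Figure D4:**
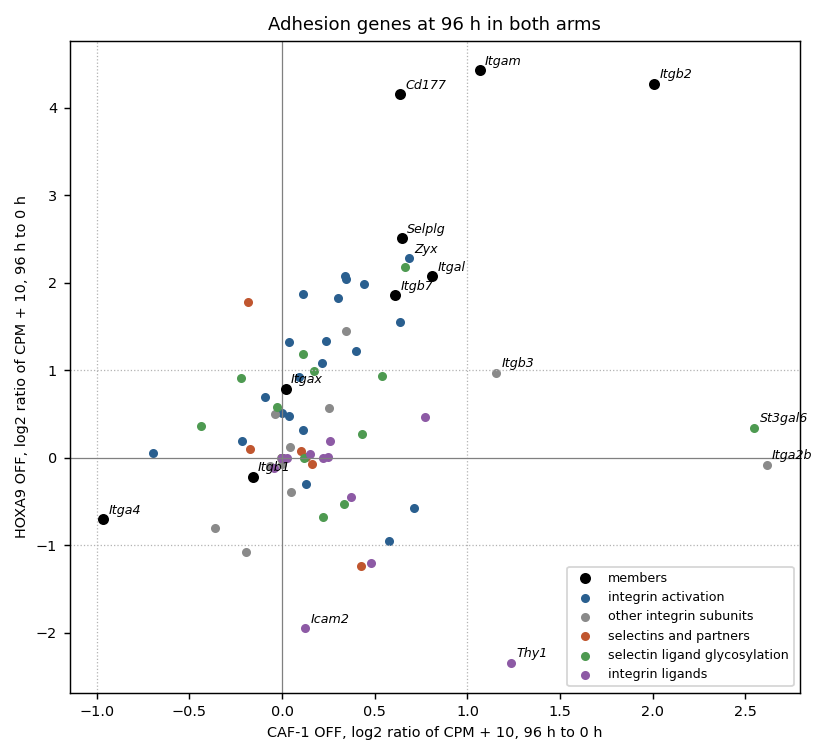
log2 ratio of CPM + 10, 96 h to 0 h, in the CAF-1 arm (horizontal axis) and HOXA9 OFF (vertical axis) for the 9 genes (black) and 79 other adhesion genes of 5 lists (colours); dotted lines mark 2-fold. Itgam, Itgb2 and Cd177 lie at the top, St3gal6 and Itga2b at the right, and Thy1 at the lower right.

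Beside Selplg over the 6 libraries lay Litaf, Tnfrsf1a, a receptor of tumour necrosis factor, and Ctsc, the protease that activates granule serine proteases, with root mean square differences of centred log2(CPM + 10) profiles of 0.0846 to 0.145. The genes nearest to Itgam were Dpep2, C3 and Klf2 (0.134 to 0.256), and C3, the central complement component, was at 0 UMIs in both 0 h libraries. The nearest to Itgb2 were Hacd4, Id2 and Vsir (0.188 to 0.246), to Itgal, Trim30a, Trps1 and Ctsl (0.191 to 0.235), and to Cd177 Klra17, Pilrb1 and Ier5 (0.0874 to 0.166). Those nearest to Itga4 were Ube2e1, 0610010K14Rik and Csnk1a1 (0.0708 to 0.119) and to Itgb1 Atxn10, Spsb3 and Txnrd1 (0.0644 to 0.0791). The 6 libraries are 1 per group, so these likenesses are descriptions of 6 points. By Pearson r in place of the root mean square difference, at most 2 of the 3 nearest genes were kept for any of the 7 genes whose mean reached 20 CPM.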

How the data were processed

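Libraries were made from live-sorted cells with 10x Chromium Single Cell 3′ v2 chemistry. The authors aligned reads to the mouse assembly GRCm38 with Cell Ranger and deposited UMI counts per gene and cell barcode, in 1 table for all 6 libraries. The submitters' processing notes name Cell Ranger 3.0.1, Scanpy 1.4.6 and Seurat 3.0.1. Of 7821 barcodes, 5872 cells were kept by the study's limits of 200 to 6000 genes and at most 10% mitochondrial UMIs. No doublets were removed. UMIs of the kept cells were summed per library and scaled to CPM. Ratios used log2(CPM + 10) with a size of 2-fold, and folds used CPM with an exact conditional binomial interval. A count of 0 was set to 3 UMIs, and such folds are written as at least. CPM intervals were exact Poisson and shares exact Clopper-Pearson, with 3 counts of the total as the limit beside a share of 0, for counting error only. Ratios and intervals were tested on simulated Poisson counts, the model that the intervals assume, with no variation between libraries, clones or cells. Cells of each library were clustered by Leiden (resolution 0.5, scanpy 1.11.5) without the 9 genes. TMM factors came from edgeR 4.0.16, which was used for scaling only. The reads end near the 3′ end of transcripts, so isoforms were not told apart. Samples were grouped by the submitters' labels.

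The genes named are the 9 genes, the listed adhesion genes past 2-fold, the 3 genes with the nearest profile to each of the 7 genes of at least 20 CPM, and up to 3 leading genes of a cluster. Chaf1b, the target of the hairpin, and the markers S100a9, Ltf, Ngp, Gp1bb, Cd34, Hoxa9 and Mmp8 fall outside that rule. So do Fermt3, Fut7, Cd24a, Parvb and Itgb2l. All of these were chosen after their values were seen. The 9 genes and the lists were chosen with earlier results of these data known. Of the lists, 1 gene is not reported here and was left out of the list counts.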

Additional observations from a re-analysis of the deposited data

Results flagged for a closer look

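Thy1, a surface glycoprotein that can bind Itgam with Itgb2, moved in opposite directions in the 2 arms, with log2 ratios of 1.23 and 1.24 at 48 and 96 h in the CAF-1 arm and -2.35 and -2.35 in the HOXA9 arm. Its levels were 9.49, 35.8 and 36.0 CPM in the CAF-1 arm. In the HOXA9 arm it was at 40.8 CPM at 0 h, from 171 UMIs, and at 0 UMIs at both later times, at least 72.2-fold and 47.9-fold lower. The 0 h libraries of the 2 clones therefore differed in Thy1 before treatment. Parvb, which encodes a parvin that joins integrin-linked kinase to actin, likewise moved both ways, with log2 ratios of 0.52 and 0.58 in the CAF-1 arm and -0.39 and -0.95 in the HOXA9 arm, from 6.17, 13.2 and 14.1 CPM against 10.98, 6.03 and 0.851 CPM. With 1 library per group, the difference between the arms was not tested for either gene.

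The table holds a second column under the symbol Itgam, which the comparisons above leave out. It stood at 4.71 CPM in the HOXA9 arm at 48 h and 7.94 CPM at 96 h, and at 0, 0, 0.371 and 0.239 CPM in the CAF-1 arm at 0, 48 and 96 h and in the HOXA9 arm at 0 h. Which annotated gene the second column stands for is not given in the sources used here.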

How the results depend on the processing

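Under the alternatives run for the counts of the 9 genes past 2-fold, no called direction reversed. With a pseudocount of 1 CPM, 3 genes were higher in the CAF-1 arm at 48 h and 5 at 96 h, and 1 (Itga4) was lower at 96 h. With 50 CPM, 0 were higher at either time. With at most 5% mitochondrial UMIs, 0 were higher at 48 h in the CAF-1 arm. With all barcodes, and with a total that leaves out mitochondrial and ribosomal protein genes, 1 gene was lower in the CAF-1 arm at 96 h, and with that total 1 was lower in the HOXA9 arm at 96 h. A size of 1.5-fold gave 6 higher in the CAF-1 arm at 96 h and 1 lower in each of the 4 comparisons with 0 h. A size of 4-fold gave 0 and 1 higher in the CAF-1 arm at 48 and 96 h and 2 in the HOXA9 arm at 48 h. The 0 h library of the other arm as the reference, chosen after seeing the data, left all 8 counts within 1.5 times. The median log2 ratio of all genes in the HOXA9 arm at 96 h was -0.19 with TMM and -0.93 with the total without mitochondrial and ribosomal protein genes, against -0.56, and this shift bears on Itga4 and Itgb1. Of the log2 ratios of single genes under these alternatives, 100 moved beyond the counting error and 296 did not. Of the shares of cells, 130 moved beyond their interval and 32 did not with 2600 UMIs, no thinning or a minimum of 2 UMIs, which change the depth or the minimum behind a share. At a Leiden resolution of 1, the highest level in a cluster of at least 40 cells moved beyond its interval in 7 cases and not in 47, and 4 of the 7 were Itgam (64.2 CPM), Itgb2 (145 CPM), Itga4 (55.6 CPM) and Cd177 (21.4 CPM) in the CAF-1 arm at 96 h. No paired analysis was possible because there was 1 library per group. Leaving out a replicate was not possible for the same reason. Genes under about 3 UMIs per library, such as Itgax in the CAF-1 arm, are limited by depth.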

Other observations

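Itgb2l, a gene close to Itgb2 in sequence, is in none of the lists and was looked at after its values were seen. It had 0 UMIs in both 0 h libraries, 0.716 and 2.41 CPM in the CAF-1 arm at 48 and 96 h, and 9.42 and 113 CPM in the HOXA9 arm, at least 158-fold above the 0 h limit at 96 h. At 96 h in the HOXA9 arm it was 12.0-fold above 48 h (8.94 to 16.5), where Itgb2 was 1.83-fold above it (1.69 to 1.99) and Cd177 7.82-fold. At equal depth it had a UMI in 14.2% of cells in the HOXA9 arm at 96 h (12.4% to 16.1%). How the counting treated reads that fit both Itgb2 and Itgb2l was not examined, so both levels are uncertain to that extent.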
